A study of Arabidopsis thaliana with 22 samples.

Results

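AT1G60590, a pectin lyase-like gene, and AT3G27400, a member of the pectate lyase family, were followed across leaf development and CO2 supply in Arabidopsis thaliana. Each has 1 probe set that the platform annotation gives to that gene alone, and together they are 2 of the 6734 genes named on the array. They were chosen by their measured log2 changes between elevated and ambient CO2 in mature leaves, which went in opposite directions, so that contrast is described below without a test.

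Leaf 10 of wild-type Col-0 plants was profiled on 22 Affymetrix arrays. All plants spent their first 7 days at 370 ppm CO2 and were then randomized between chambers held at 370 ppm (ambient) or 750 ppm (elevated), with 10 h days at 21 °C, 14 h nights at 18 °C, under light of 300 µmol per square metre and second. The leaf was taken as a primordium, during rapid expansion or fully expanded (mature), with 4 arrays per CO2 level for primordia and mature leaves and 3 for expanding leaves. Each primordia sample pooled 20 plants, whereas expanding and mature leaves were taken whole. With 1 chamber named per CO2 level, CO2 and chamber cannot be told apart.

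Pectin is the gel-forming polysaccharide of the primary wall and of the layer that glues neighbouring plant cells together. Its main backbone, homogalacturonan, is secreted with methyl esters, which pectin methylesterases remove and methylesterase inhibitors protect. Once de-esterified, the backbone can be cut by pectate lyases, which cleave by elimination, or by polygalacturonases, which cleave by hydrolysis, and this cutting accompanies cell growth and cell separation. The pectin lyase-like name describes a protein fold that both enzyme classes share, and AT1G60590 was placed with the polygalacturonase-type genes in the lists used here.

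Values are log2 levels relative to the median probe set of each array, so 0 is that median and a difference of 1 is a change by a factor of 2. The arrays held what the labels say as far as their markers were named: AUR1 and PRL, genes of dividing cells and 2 of the 6 listed, averaged between 1.10 and 1.45 in primordia, between -1.02 and -0.38 in expanding leaves and between -2.42 and -1.42 in mature leaves. LHCB4.1 and PSBY, photosystem II genes and 2 of 7 listed mesophyll markers, averaged 3.99 to 4.30 in primordia and 4.80 to 5.39 later. FMA, also called FAMA, was the 1 named marker of 3 for guard cells. The listed markers of xylem, phloem, epidermis, shoot meristem and senescence had no named probe set. On the second principal component (7.83% of the variance) replicates 3 and 4 of the mature leaves at elevated CO2 scored 36.3 and 27.7, against -7.74 to 14.9 for the remaining mature arrays. Results that rest on this pair are given with and without it.

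AT1G60590 had overlapping levels in primordia at both CO2 levels. Its log2 level in the ambient primordia was 1.79, 2.13, 1.28 and 1.65 in replicates 1 to 4. In the elevated-CO2 primordia it was 1.67, 1.59, 1.72 and 1.31. All elevated arrays lay within the ambient range, with means of 1.71 ± 0.35 (SD, n = 4) and 1.57 ± 0.18 (SD, n = 4). The difference of elevated minus ambient CO2 was -0.14 ± 0.29 (SE), with a 95% confidence interval from -0.74 to 0.47, and did not pass limma's test over all probe sets (adjusted p 1.00). In primordia 3.22% of all probe sets had CO2 groups that did not overlap.

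In expanding leaves AT1G60590 was at its highest. The ambient arrays read 2.71, 2.92 and 2.96, and the elevated arrays read 2.75, 2.45 and 2.50. The top elevated array lay within the ambient range and the others lay below it, at a stage where 20.4% of all probe sets had groups that did not overlap. Means were 2.86 ± 0.14 (SD, n = 3) and 2.57 ± 0.16 (SD, n = 3), and the CO2 difference was -0.30 ± 0.33 (SE; 95% confidence interval -0.99 to 0.40, limma adjusted p 0.715). The CO2 difference in expanding leaves exceeded that in primordia by -0.16 ± 0.44, which did not pass either (limma adjusted p 0.916).

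In mature leaves AT1G60590 was at 2.94, 2.17, 2.49 and 1.97 in ambient replicates 1 to 4. At elevated CO2 it was at 1.46, 1.56, -0.31 and 0.72. Every elevated array lay below every ambient array, a separation that 9.22% of all probe sets showed at this stage in one direction or the other and 4.76% in this direction. The group means were 2.39 ± 0.42 (SD, n = 4) and 0.86 ± 0.87 (SD, n = 4), a difference of -1.54 ± 0.29 (SE), or 2.90-fold lower. In bulk leaf RNA, fewer cells that carry a transcript and less transcript per cell cannot be told apart. The elevated group was also the most scattered of the 6, with replicate 3 more than 1 log2 unit below the next array. Without that array the difference was -1.15, and without replicates 3 and 4 together it was -0.88, or 1.84-fold lower.

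AT3G27400 had a low and even reading in young leaves. Over the ambient primordia its log2 level was -1.59, -1.45, -1.45 and -1.62, and over the elevated primordia it was -1.33, -1.41, -1.57 and -1.61. In expanding leaves it was -1.62, -1.44 and -1.58 at ambient CO2, and -1.80, -1.52 and -1.63 at elevated CO2. All 14 of these arrays lay between -1.80 and -1.33, and the groups of each stage overlapped. No detection call accompanies the values, so whether these readings stood above the array's background was not analysed here.

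The CO2 difference of AT3G27400 was 0.05 ± 0.21 (SE) in primordia, with a 95% confidence interval from -0.39 to 0.49 (limma adjusted p 1.00). In expanding leaves it was -0.10 ± 0.24, with an interval from -0.61 to 0.41 (limma adjusted p 0.880). The CO2 difference in expanding leaves minus that in primordia was -0.15 ± 0.32 (limma adjusted p 0.886). Few probe sets passed these contrasts at all: 0.00799% were called, at an adjusted p under 0.05, for CO2 in primordia, 0% in expanding leaves and 0% for the difference, and neither gene was among them. The expanding-leaf count of 0 depended on the setting: it was 387 of 12511 with array weights, 453 with the difference between 3-prime and 5-prime control signal as a covariate, 81 without ambient replicate 1 and 37 without mature elevated replicates 3 and 4. Neither gene passed in those fits either.

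In mature leaves at ambient CO2, 3 of the 4 arrays of AT3G27400 stayed in the range of the young leaves, at -1.47, -1.49 and -1.61, and replicate 3 was higher at -0.70. At elevated CO2 the arrays read -0.80, 0.19, 0.61 and 0.20 in replicates 1 to 4. Replicate 1 at elevated CO2 was lower than ambient replicate 3, so the groups overlapped by that pair of arrays. Means were -1.32 ± 0.42 (SD, n = 4) and 0.05 ± 0.60 (SD, n = 4), a difference of 1.37 ± 0.21 (SE), or 2.58-fold higher. It was 1.18 without elevated replicate 3 and 1.01 without replicates 3 and 4 together, or 2.02-fold higher.

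**Figure D1:**
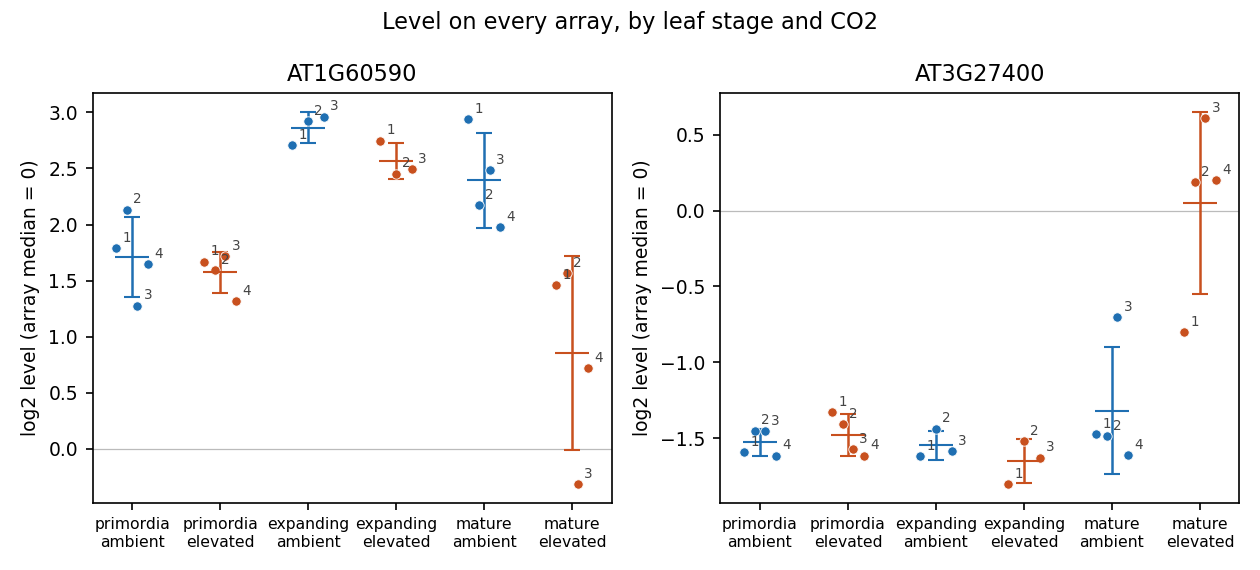
Log2 level (array median at 0) of AT1G60590 and AT3G27400 on each of the 22 arrays, by leaf stage and CO2 level. Points are arrays marked with their replicate number, horizontal bars are group means and error bars are SDs; the elevated-CO2 mature arrays are the lowest group for AT1G60590 (mean 0.86) and the highest for AT3G27400 (mean 0.05).

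The arrays that were extreme for one gene were not always those for the other. Among the elevated mature arrays, replicate 3 had the lowest AT1G60590 and the highest AT3G27400. Replicate 2 had the highest AT1G60590 of its group, at 1.56, together with an AT3G27400 level of 0.19 that was close to replicate 4. Replicate 1 had the lowest AT3G27400 of its group, at -0.80, which was still above every ambient mature array except replicate 3. Its AT1G60590 reading of 1.46 was below all ambient mature arrays. Both mature differences had the same sign after any single array was left out, from -1.77 to -1.15 for AT1G60590 and from 1.18 to 1.65 for AT3G27400. The choosing contrast called 3.90% of all probe sets in limma, 1.76% as higher and 2.14% as lower.

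The cell type markers had overlapping ranges in the mature groups. AUR1 and PRL averaged -1.96 to -1.67 at ambient and -2.42 to -1.42 at elevated CO2, LHCB4.1 and PSBY 5.01 to 5.28 and 4.80 to 5.13, and FMA -1.96 to -1.06 and -1.91 to -1.33. The lowest readings of both averages were in elevated replicate 3. In control transcripts the 3-prime probe sets read above the 5-prime ones, by a difference that grows as RNA is shortened; it ran from 1.04 to 1.13 at ambient and from 0.95 to 1.11 at elevated CO2. With that difference as a covariate the CO2 changes were -1.45 for AT1G60590 and 1.30 for AT3G27400. The part of the markers in either difference was not tested. In expanding leaves AUR1 and PRL averaged -0.66 to -0.38 at ambient and -1.02 to -0.80 at elevated CO2. FMA was at -0.60 to -0.53 and -1.39 to -0.88. These groups did not overlap, as for 20.4% of all probe sets at that stage. LHCB4.1 and PSBY overlapped, at 5.25 to 5.39 and 5.07 to 5.29. The part of the markers in the CO2 differences of expanding leaves was not tested.

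The order of the 6 group means differed between the genes. AT1G60590 ran from expanding ambient (2.86) through expanding elevated (2.57), mature ambient (2.39), primordia ambient (1.71) and primordia elevated (1.57) to mature elevated (0.86). AT3G27400 ran from mature elevated (0.05) through mature ambient (-1.32), primordia elevated (-1.48), primordia ambient (-1.53) and expanding ambient (-1.55) to expanding elevated (-1.65). In both orders the arrays of every group overlapped those of the next group. For AT3G27400 the widest gap between neighbouring means, 1.37, set the elevated mature leaves above the 5 other groups. That gap is the mature CO2 difference by which the gene was chosen. For AT1G60590 the wider gaps, 0.68 and 0.72, lay on either side of the primordia groups. The gap of 0.72 rested on elevated mature replicates 3 and 4, at -0.31 and 0.72. Replicates 1 and 2, at 1.46 and 1.56, lay within the range of the primordia arrays, 1.28 to 2.13.

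The stage steps separated the genes as well. From primordia to expanding leaves AT1G60590 rose by 1.07 ± 0.22 (SE) as the mean of both CO2 levels, or 2.10-fold (limma adjusted p 0.000167). Its 6 expanding arrays, between 2.45 and 2.96, all lay above its 8 primordia arrays, between 1.28 and 2.13, as did those of 28.3% of all probe sets. The rise was 1.15 ± 0.31 at ambient CO2 (limma adjusted p 0.00289) and 0.99 ± 0.31 at elevated CO2 (limma adjusted p 0.00787), steps that called 66.3% and 69.9% of all probe sets. As the mean of both levels the step called 77.5%, or 40.4% as higher and 37.1% as lower, so a call here was common. The 3-prime minus 5-prime control difference also moved with this step, from 0.95 to 1.08 over primordia and from 1.10 to 1.48 over expanding leaves. With that signal as a covariate the change of AT1G60590 was 0.65 and no longer passed (limma adjusted p 0.150), nor did it at ambient (0.81) or elevated CO2 (0.49). The averages of AUR1 with PRL and of LHCB4.1 with PSBY moved with this step too, as given above, and their part in it was not tested.

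AT3G27400 did not pass at this step, with a difference of -0.09 ± 0.16 (SE) as the mean of both CO2 levels (95% confidence interval -0.43 to 0.24, limma adjusted p 0.602). It was -0.02 ± 0.23 at ambient CO2 (limma adjusted p 0.948) and -0.17 ± 0.23 at elevated CO2 (limma adjusted p 0.520). With the control-signal covariate the mean of both levels was 0.21, and it did not pass there either (limma adjusted p 0.523).

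From expanding to mature leaves the estimates for the 2 genes had opposite signs. As the mean of both CO2 levels AT1G60590 fell by 1.09 ± 0.22 (SE) on the log2 scale (limma adjusted p 0.000288), and AT3G27400 rose by 0.96 ± 0.16, or 1.95-fold (limma adjusted p 3.97e-05). This step called 56.3% of all probe sets, 25.2% as higher and 31.0% as lower. It uses the mature arrays that chose the genes, averaging the CO2 levels rather than subtracting them. Its p-values are therefore no independent support for that choice. Within a CO2 level, the step of AT1G60590 was -1.71 ± 0.31 at elevated and -0.47 ± 0.31 at ambient CO2, and that of AT3G27400 was 1.70 ± 0.23 and 0.23 ± 0.23. At ambient CO2 the confidence intervals spanned both signs, from -1.12 to 0.18 for AT1G60590 and from -0.25 to 0.70 for AT3G27400. The mean steps lay mostly in the elevated arrays, so their p-values do not show a step at ambient CO2. The steps within a CO2 level are given without a test, because the gap between the CO2 levels contains the difference by which the genes were chosen. Without elevated mature replicates 3 and 4 the mean steps were -0.76 and 0.79. No test is given for that fit, because unequal array numbers tie its mean step to the choosing difference. With the control-signal covariate the step of AT1G60590 was -0.76 and did not pass (limma adjusted p 0.0875), whereas that of AT3G27400 was 0.72 and passed (limma adjusted p 0.0287).

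**Figure D2:**
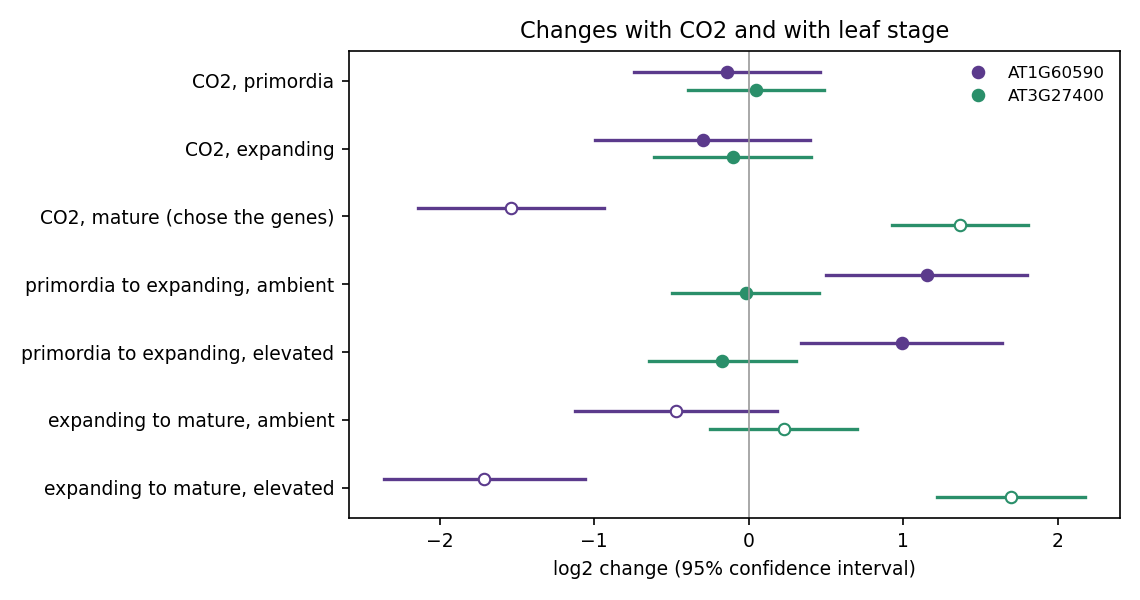
Log2 changes of AT1G60590 (purple) and AT3G27400 (green) with CO2 at each stage and with stage at each CO2 level; points are estimates from the limma fit and bars are 95% confidence intervals. Filled points use only arrays the choice of genes did not use, and open points share the mature arrays. The intervals for CO2 in primordia and expanding leaves include 0 for both genes. Those for CO2 in mature leaves describe the contrast that chose the genes and are no test.

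Other genes that make, trim or cut pectin were compared from lists written by locus. Of 229 other genes listed, 45 had a named probe set, so the lists were seen in part. In mature leaves at elevated CO2, 1 of the 45 was called higher and 5 lower in limma, 13.3% of them against 3.90% of all probe sets. Their median change was -0.12, against -0.02 over all probe sets, and 36 of the 45 changes were negative. Without elevated replicates 3 and 4 the median was -0.08 and 28 were negative. For no contrast was the share of negative changes over all probe sets counted, so the counts of signs here and below stand alone.

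Among the 10 other pectate lyase genes measured, 3 fell with CO2 in mature leaves and 0 rose. They were AT1G67750 (-0.98 ± 0.24, SE), AT5G48900 (-0.62 ± 0.16) and AT3G07010 (-0.55 ± 0.15). In all, 9 of the 10 had negative changes, with a median of -0.28, and the remaining gene, AT3G55140, named here after its value was seen, was at 0.01 ± 0.09. Among the 12 other polygalacturonase-type genes, AT3G16850 fell (-0.47 ± 0.09) and 0 rose, 11 changes were negative and the median was -0.17. AT3G06770 had the next smallest p in that list, at -0.44 ± 0.13 (limma adjusted p 0.0603).

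Of the genes that act on the ester groups, ATPMEPCRB, the pectin methylesterase also named PME41, rose with CO2 in mature leaves by 0.75 ± 0.18 (SE), and the other 7 measured methylesterases did not pass. AT3G05910, from the list of pectin acetylesterases, which remove acetyl groups, fell by 0.46 on the log2 scale. None of 8 methylesterase inhibitor genes passed. The smallest p among these were those of AT4G25260, at -0.49 ± 0.19 (limma adjusted p 0.139), and AT1G23205, at -0.80 ± 0.33 (limma adjusted p 0.165). The 1 measured gene for rhamnogalacturonan lyases, which cut the branched pectin backbone, was at -0.10 ± 0.14, and the 3 measured synthesis genes, GAUT15 among them, lay between -0.08 and 0.06. No list member for the wall-associated kinases, which bind pectin, or for polygalacturonase inhibitors was named.

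These 6 calls rested on particular arrays, and so did the calls over all probe sets. Without elevated replicates 3 and 4 none of the 6 passed, although ATPMEPCRB was at 0.85 and AT3G16850 at -0.41. In that fit AT5G62360, a listed methylesterase inhibitor, was called instead (0.97 ± 0.19, against 0.43 ± 0.22 with all arrays). All probe sets called in that fit were 30 of 12511, against 488 with all arrays. Without elevated replicate 3 alone, 0 of the 45 and 60 of all probe sets were called. The count was 1 without elevated replicate 4 (137 of all probe sets), ambient replicate 1 (64) or ambient replicate 2 (138), and 2 without ambient replicate 3 (145). It was 9 without elevated replicate 2 (1051 of all probe sets). With the mature arrays fitted alone, 0 of the 45 and 0 of all 12511 were called.

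In primordia and in expanding leaves, 0 of the 45 other genes were called for CO2 in limma. Their median changes were -0.06 and -0.01, against 0.01 and -0.03 over all probe sets. The pectate lyases with the smallest p in primordia, AT4G24780 and AT5G63180, were at -0.28 ± 0.11 (SE) and -0.36 ± 0.14. In expanding leaves AT3G42950, first in the polygalacturonase-type list, was at -0.51 ± 0.18. The methylesterases with the smallest p were positive, ATPMEPCRB in primordia (0.45 ± 0.18) and PMEPCRF in expanding leaves (0.46 ± 0.20). ATPMEPCRB was at 0.35 ± 0.20 in expanding leaves. Of the 45 changes 31 were negative in primordia and 25 in expanding leaves.

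**Figure D3:**
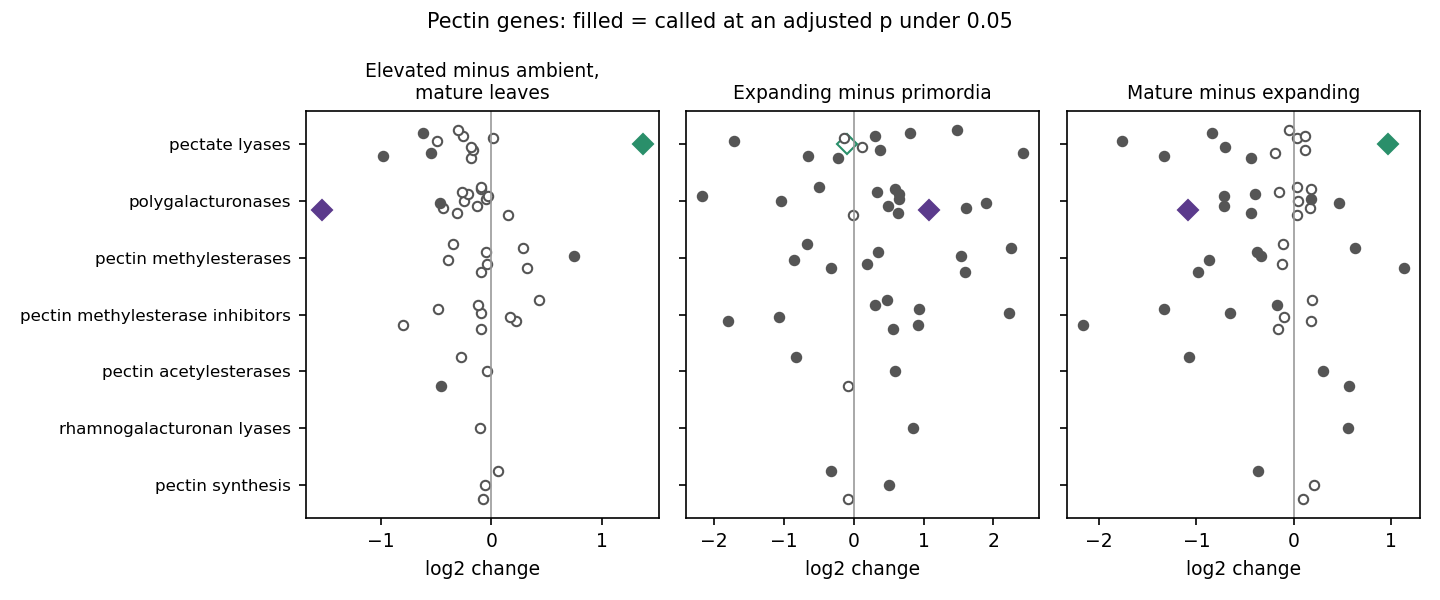
Log2 changes of 47 measured pectin genes by list, for CO2 in mature leaves and for the steps between stages (mean of both CO2 levels). Each symbol is a gene, filled where its adjusted p in limma was under 0.05. Diamonds mark AT1G60590 (purple) and AT3G27400 (green), which lie at -1.54 and 1.37 in the CO2 panel that chose them. In that panel the fill of the diamonds is no test, because the same contrast chose the genes.

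The steps between stages called many pectin genes, and fewer with the control signal as a covariate. That signal did not overlap between primordia (0.95 to 1.08) and expanding leaves (1.10 to 1.48), so signal and stage are hard to tell apart there. From primordia to expanding leaves 27 of the 45 other genes were called higher and 13 lower, 88.9% against 77.5% of all probe sets, with a median of 0.34 against 0.03. With the control-signal covariate 18 were higher and 10 lower, 62.2% against 63.3% of all probe sets, and the median was 0.21. In the fit without the covariate, 8 of the 12 other polygalacturonase-type genes rose and 3 fell. AT3G16850 rose by 1.89 ± 0.07 (SE) and AT3G06770 by 1.61 ± 0.10, both more than AT1G60590, while AT3G61490 fell by 2.17 ± 0.13. Of the 10 other pectate lyases 5 rose and 3 fell, with AT3G07010 at 2.43 ± 0.11, AT5G63180 at 1.48 ± 0.11 and AT3G53190 at -1.71 ± 0.14. The methylesterase gene PMEPCRF rose by 2.25 ± 0.13 and the listed inhibitor AT3G62820 by 2.22 ± 0.10.

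From expanding to mature leaves 7 of the 45 were called higher and 19 lower, 57.8% against 56.3% of all probe sets. With the covariate 5 were higher and 14 lower, 42.2% against 29.6%. The counts and values that follow are from the fit without it. Among the other pectate lyases 5 of 10 fell and 0 rose, with AT3G53190 at -1.77 ± 0.14 (SE) and AT1G67750 at -1.33 ± 0.19. Among the other polygalacturonase-type genes 4 of 12 fell and 2 rose, with AT3G15720 at -0.72 ± 0.17 and AT3G16850 at 0.47 ± 0.07. The methylesterase AT3G43270 rose by 1.13 ± 0.13, and the listed inhibitor AT1G23205 was at -2.17 ± 0.25.

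Genes with the pattern most like each member were taken by Pearson's r over the 22 arrays, as a description. The arrays share stage and CO2 groups, which raises r between any genes that follow them. Genes picked this way are therefore likely to share the signs of the member's changes. For AT1G60590 the closest were AT2G10940 (r = 0.943), AT1G01970 (0.933), the plastid ribosomal protein gene rpl14 (0.915), AT5G17670 (0.915) and AT4G12980 (0.914). All 5 had a positive step from primordia to expanding leaves, from 0.41 to 0.84, and a negative CO2 change in mature leaves, from -0.77 to -0.34. Without elevated replicates 3 and 4 their r were between 0.807 and 0.882 over 20 arrays. For AT3G27400 they were AT1G03820 (0.863), AT2G23120 (0.862), AT4G22820 (0.862), GR1, a glutathione reductase (0.850), and AT5G27760 (0.848). Their mature CO2 changes were all positive, from 0.18 to 0.67. Without elevated replicates 3 and 4 their r were between 0.657 and 0.732.

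Likeness was also taken on deviations from group means, which removes stage and CO2. AT1G60590 deviated most like AT2G32500 (r = 0.944), STOMAGEN, which promotes stomatal density (0.940), AT1G21500 (0.933), AT2G43560 (0.933) and AT1G33811 (0.932). All 6 genes had their lowest mature reading in elevated replicate 3, where STOMAGEN was at -1.31 against 0.66 to 1.59 in the ambient mature arrays. Without elevated replicates 3 and 4 these r were between 0.820 and 0.901 over 20 arrays. AT3G27400 deviated most like LTI30, a dehydrin (0.842), AT1G03820 (0.787), GR1 (0.778), COR47, another dehydrin (0.734), and AT5G65960 (0.694). LTI30 read -0.05 in elevated replicate 3, its highest mature array, and -0.73 in ambient replicate 3, its highest ambient one; AT3G27400 had its highest readings on the same arrays. Without elevated replicates 3 and 4 these r were between 0.591 and 0.752. Between the members themselves, r of the deviations was -0.392 over 22 arrays.

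**Figure D4:**
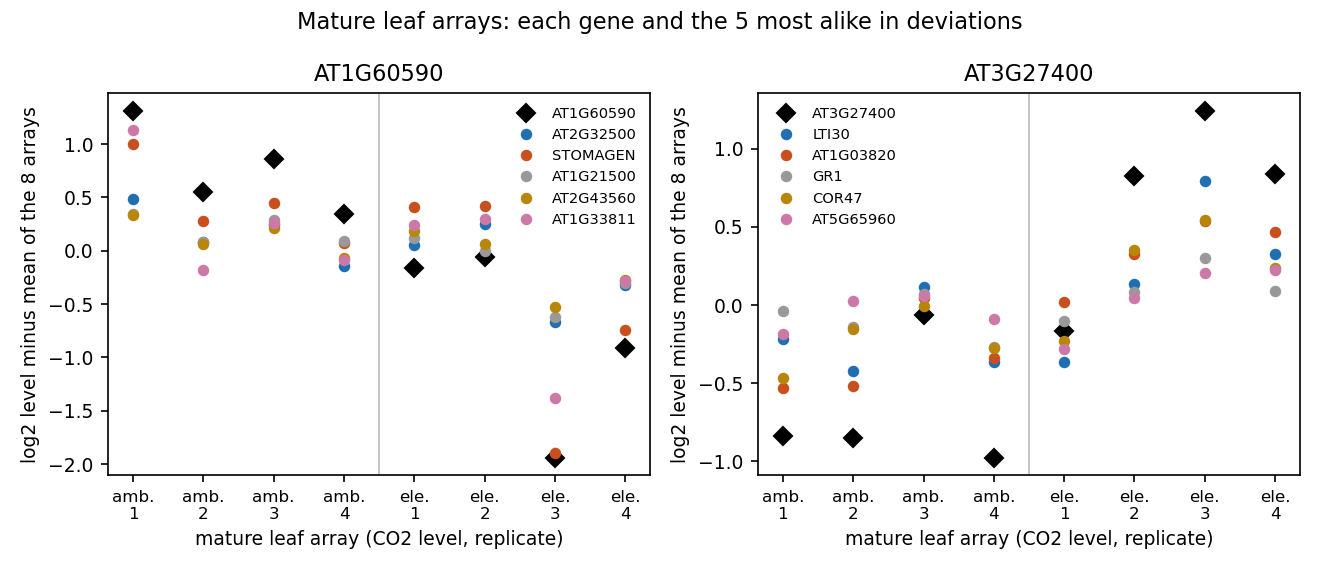
Log2 level minus the mean of the 8 mature arrays (CO2 level and replicate on the x axis) for each member (black diamonds) and the 5 genes with the most similar deviations from group means (coloured circles). Elevated replicate 3 is the lowest array for AT1G60590 and its 5 companions; it is the highest for AT3G27400, LTI30, AT1G03820, GR1 and COR47.

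The nearest measured protein-coding neighbours on the chromosome were not called for CO2 in mature leaves, and their difference from the members was not tested. In the TAIR10.1 gene order, AT3G27390 stands next to AT3G27400 and SDH2-1, an iron-sulfur subunit of succinate dehydrogenase, 1 gene beyond. Their CO2 changes in mature leaves were -0.13 ± 0.12 (SE) and 0.00 ± 0.08. On either side of AT1G60590, AT1G60560 was at -0.07 ± 0.09 and AT1G60610 at -0.25 ± 0.17. The limma adjusted p-values of these 4 genes lay between 0.402 and 0.997.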

How the data were processed

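The deposited log2 values cover 12570 probe sets on 22 arrays, lie between -6.80 and 6.54 and have a median of 0 on every array. Per the labels, total RNA was labelled with a 3-prime kit. Not given in the sources used here were the background correction, the summarisation, the choice of probe sets and scan batches, and base 2 was inferred from the range. The 59 control probe sets were left out. Of 12511 tested, 6782 had exactly 1 annotated gene, 262 several and 5467 none here. With limma 3.58.1 under R 4.3.3, lmFit took all 6 groups as separate means (16 residual degrees of freedom), followed by contrasts.fit and eBayes. Tests were two-sided with Benjamini-Hochberg adjustment over all tested probe sets, and a call is an adjusted p under 0.05. SEs and 95% confidence intervals come from that fit, and SDs are over arrays. For both members these SEs carry the wider spread of the mature arrays into the younger stages. In turn, the SEs of the mature differences are smaller than the mature arrays alone would give. The pooled SDs of the mature groups were 0.68 for AT1G60590 and 0.52 for AT3G27400. The number of arrays limits the precision, and where the labels do not say that samples came from separate plants, p-values measure only the spread between samples. The members and lists were chosen with earlier results of these data known. Named were the members, list genes called or with the smallest p, and the 5 genes most alike by each measure. Alternatives were the prior, array weights, stages fitted alone, quantile normalization, replicate blocks, a filter on the lowest 20% of probe sets, a covariate of control signal, an exact permutation test and left-out arrays.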

Additional observations from a re-analysis of the deposited data

Results flagged for a closer look

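In the ambient mature leaves, replicate 3 stood apart from the other 3 arrays for AT3G27400, at a log2 level of -0.70 against -1.61 to -1.47. Its gap to the nearest array was 0.850 of the group's range, above Dixon's 95% critical value of 0.829 for 4 samples. It was the 1 such case among 8 groups of 4 arrays examined over both genes. Leaving that array out lowered the step from expanding to mature leaves (mean of both CO2 levels) to 0.86.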

How the results depend on the processing

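Of 120 alternative values for the members' 12 results, left-out single arrays aside, 116 kept their direction and their side of the threshold (for the mature CO2 differences, moved by less than the pooled SD of the mature groups, 0.68 for AT1G60590 and 0.52 for AT3G27400). The others all came from the 3-prime minus 5-prime control signal as a covariate. AT1G60590 no longer passed for the step from primordia to expanding leaves (0.65) or from expanding to mature leaves (-0.76), and AT3G27400 changed sign for the first step (0.21) and for CO2 in expanding leaves (0.060), neither called. For the first step of AT3G27400 within a CO2 level, sign changes without a call came with the covariate (0.23 at ambient and 0.20 at elevated CO2) and with array weights (0.03 at ambient). The cause was not tested. By the SD rule for the mature CO2 differences, a drop of AT1G60590 from -1.54 to -0.88 without elevated replicates 3 and 4 counted as kept. A changed prior could not move any estimate, so the count of 116 includes values that were fixed in advance. Leaving out single arrays gave a CO2 difference in primordia from -0.28 to 0.0027 for AT1G60590 and from -0.0038 to 0.092 for AT3G27400, and an ambient first step of AT3G27400 from -0.073 to 0.017. No call of a member was lost or gained that way. Replicate numbers did not pair the arrays: deviations of same-numbered arrays correlated from -0.25 to 0.26, over 0.1 in 4 of 11 pairs. With replicate number as a block, AT1G60590 kept its steps at 1.00 and -1.02, AT3G27400 its later step at 0.99, and no call of a member changed. A block within stage could not move the CO2 effects in mature leaves, at -1.54 and 1.37. Each mature replicate number occurs at both CO2 levels. By the exact permutation test over arrays, p for CO2 was 0.457 and 0.486 in primordia (smallest possible 0.0286) and 0.2 and 0.4 in expanding leaves (smallest possible 0.1, so that design cannot pass) for AT1G60590 and AT3G27400. The count of 6 other pectin genes called in mature leaves (488 of all 12511 probe sets) was 3 with array weights (261), 3 with the replicate block within stage (277) and 2 with the covariate (234), and between 0 and 9 without single mature arrays (60 to 1051). Of the 45 other genes, 1 passed for CO2 in expanding leaves with the covariate, or 2.22% against 3.62% of all probe sets.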
